A study of Mus musculus with 9 samples.

Results

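The transcripts described here belong to 35 genes of DNA damage repair. The genes were chosen by name for their known roles, with earlier results of these data known. Of these, 34 were read by at least 1 probe set annotated to a single gene symbol, out of 18193 such genes on the array, and 27 of the 34 were bright enough to be tested, out of 10937 genes tested in all. The 34 genes had 83 probe sets, 12 of them having 1 and 22 having more. Xrcc2 had no probe set named by a single symbol here.

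Cells repair DNA by several routes that share few parts. Double-strand breaks are rejoined either by end joining or by homologous recombination. In end joining the Ku70 and Ku80 proteins clamp the broken ends and a ligase seals them, at any time in the cell cycle. Homologous recombination copies an intact sister chromatid and so works once that chromatid has been made. Mismatch repair corrects copying errors behind the replication fork, base excision repair removes single damaged bases, and nucleotide excision repair cuts out bulky lesions. Kinases and adaptor proteins signal damage to the cell cycle. Thymocytes, the developing T cells of the thymus, also use the end joining machinery to assemble antigen receptor genes.

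The samples came from the thymus of female C57BL/6J mice aged 6 to 8 weeks. Cells carrying CD45, the surface protein of white blood cells, had been depleted on magnetic columns, and each sample pooled several mice. The 3 groups were untreated animals and animals taken 4 or 7 days after a treatment that the labels abbreviate SL-TBI, usually read as sublethal total body irradiation, given as 550 cGy from a cesium source with no hematopoietic rescue. Each group held 3 samples, each hybridised to 1 Affymetrix mouse expression array, whose probe sets read the 3-prime part of transcripts. The labels do not say that the 3 samples of a group were separate pools, so the p-values measure the spread between these samples, which may be technical.

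All levels are deposited log2 values, on which 1 unit is a doubling, and the level of 1 probe set is not set against that of another. A gene was represented by its probe set with the highest mean over the 9 arrays, and was tested if it reached a log2 value of 4, taken as the detection level, on at least 3 arrays. Between 42.1% and 44.2% of probe sets lay at or above that level on each array. "Rose" and "fell" are used for differences with a Benjamini-Hochberg adjusted p under 0.05 in a limma model of all 9 arrays. Where a gene lay below 4 on every array of a group, its fold change is a lower bound computed from that level.

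Repair transcripts moved mainly downwards after irradiation. At day 4, 15 of the 27 tested members fell and 3 rose (Nbn, Trp53bp1 and Xrcc5), whereas 21.4% of all genes tested fell and 41.8% rose. At day 7, 13 members fell and 3 rose (Nbn, Xrcc5 and Ercc1), against a background of 22% lower and 32.1% higher. From day 4 to day 7, 8 members rose and 3 fell, against a background of 9.78% higher and 17.6% lower. Of the members that rose, Nbn, Trp53bp1 and Ercc1 changed sign when the arrays were scaled to stromal marker lists, as given further on. This holds for the probe sets used, and other probe sets of Trp53bp1 and Ercc1 had larger differences. The median difference of the 27 members was -0.47 at day 4 and -0.37 at day 7 relative to untreated, and 0.16 at day 7 relative to day 4, while the medians over all genes tested were 0.20, 0.09 and -0.10. Any change passed the test for 63.2% of all genes at day 4, 54.1% at day 7 and 27.3% between the days. The arrays of the 2 groups did not overlap for 21 members at day 4 (17 lower and 4 higher, against 67.7% of all genes, 22.9% lower and 44.7% higher) and for 19 at day 7 (16 lower and 3 higher, against 62.4%, 24.9% lower and 37.5% higher). Between the days they did not overlap for 17 members (12 higher and 5 lower, against 51.7%, 17.9% higher and 33.8% lower). Both comparisons with untreated share the same 3 untreated arrays. In bulk samples such as these, fewer cells of a type and less RNA per cell cannot be told apart.

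**Figure D1:**
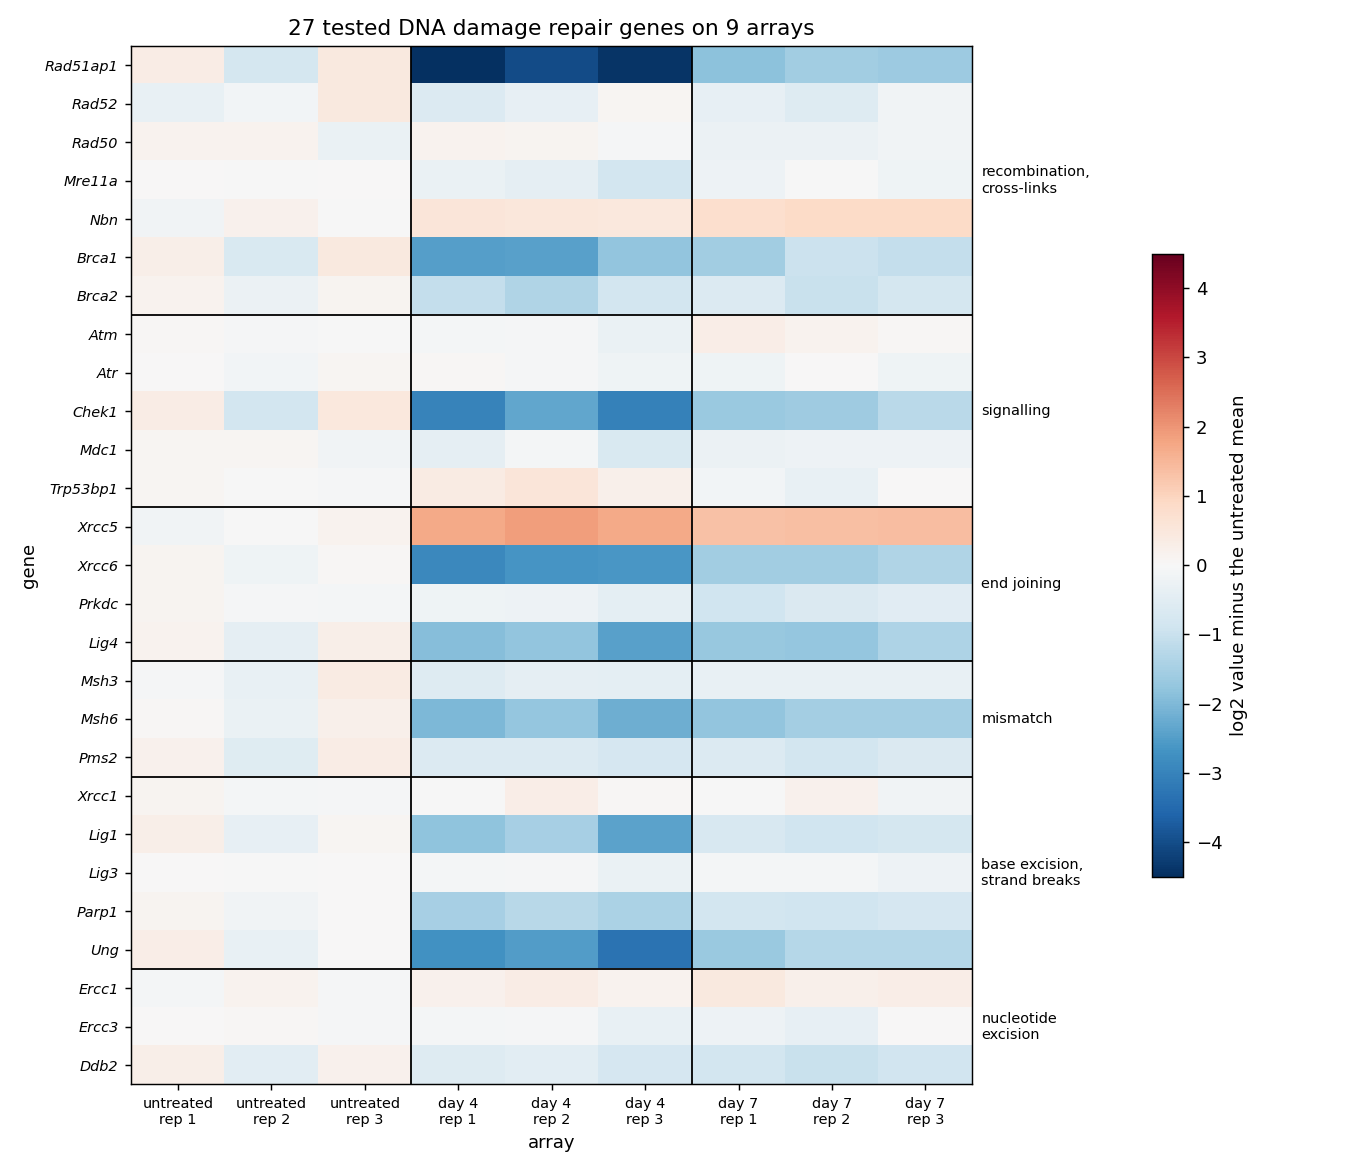
Colour map of the 27 tested repair genes (rows, by repair route) on the 9 arrays (columns, 3 each of untreated, day 4 and day 7), coloured by the log2 value minus the gene's untreated mean. The darkest blue cells belong to Rad51ap1 at day 4, whose mean lay 4.30 below untreated, and Xrcc5 is red on all 6 arrays of irradiated mice.

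The composition of the samples moved with these transcripts. The mean log2 value of 16 tested thymocyte markers lay between 9.45 and 9.86 in untreated samples, 3.68 and 3.92 at day 4 and 6.92 and 7.05 at day 7. All 16 fell at day 4 and at day 7, and 10 of them, among them Cd4, Cd8a and Rag1, were below the detection level on every day 4 array (list medians -5.81 at day 4 and -2.71 at day 7). Cd4, Rag2 and Cd5 were below it on every array of irradiated mice. They qualified for testing only through the untreated arrays, so their falls were built into their being tested. Cd8b1, a co-receptor subunit and the marker with the smallest adjusted p, fell at least 123-fold at day 4 (adjusted p = 1.69e-10). Ptprc, the gene of CD45 itself, averaged 12.22 ± 0.25 in untreated samples, 4.64 ± 0.53 at day 4 and 9.51 ± 0.22 at day 7 (SD, n = 3 each). CD45 transcripts were thus abundant in the untreated samples despite the depletion. All 19 tested markers of dividing cells fell at both days, with list means of 7.91 to 8.55 in untreated samples, 3.41 to 3.71 at day 4 and 6.47 to 6.73 at day 7 (medians -4.82 and -1.64). Plk1 among them also qualified for testing only through the untreated arrays. Top2a, the topoisomerase of dividing cells, fell by 5.95 at day 4 (adjusted p = 3.03e-08). Of 4 tested macrophage markers 2 fell and 1 rose at both days, both erythroid markers tested fell at day 4, and the only B cell marker tested, Cd79b, fell at day 7. Their part in the changes of the repair genes was not tested.

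Stromal markers did not share a direction on the deposited scale. Epcam, an epithelial surface protein, averaged 11.18 ± 0.45 in untreated samples, 11.08 ± 0.13 at day 4 and 10.78 ± 0.08 at day 7, and passed the test in neither comparison with untreated (adjusted p = 0.657 at day 4 and 0.115 at day 7). Of 10 general epithelial markers 6 rose and 1 fell at day 4 (median 0.32), of 11 cortical markers 7 rose (0.51), and of 7 medullary markers 1 rose and 2 fell (-0.37). At day 7 the counts were 5 rising and 3 falling (median 0.29), 9 rising (0.78), and 1 rising and 6 falling (-1.54). Over all genes tested, 41.8% rose and 21.4% fell at day 4, and 32.1% rose and 22% fell at day 7. Of 11 fibroblast markers 10 rose and 1, Thy1, which thymocytes also express, fell at day 4 (median 1.27). The fibroblast list mean ran from 10.22 to 10.71 in untreated samples, 11.22 to 11.73 at day 4 and 10.96 to 11.28 at day 7. The endothelium list mean ran from 4.29 to 6.08 in untreated samples, with untreated replicate 3 apart from the other two, 5.27 to 6.02 at day 4 and 7.52 to 7.59 at day 7. The Actb control probe sets read 3.01 to 3.32 higher at the 3-prime than at the 5-prime end at day 4, 2.30 to 2.71 at day 7 and 2.16 to 2.45 in untreated samples, a difference that widens as RNA degrades. Its part in the results was not tested.

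**Figure D2:**
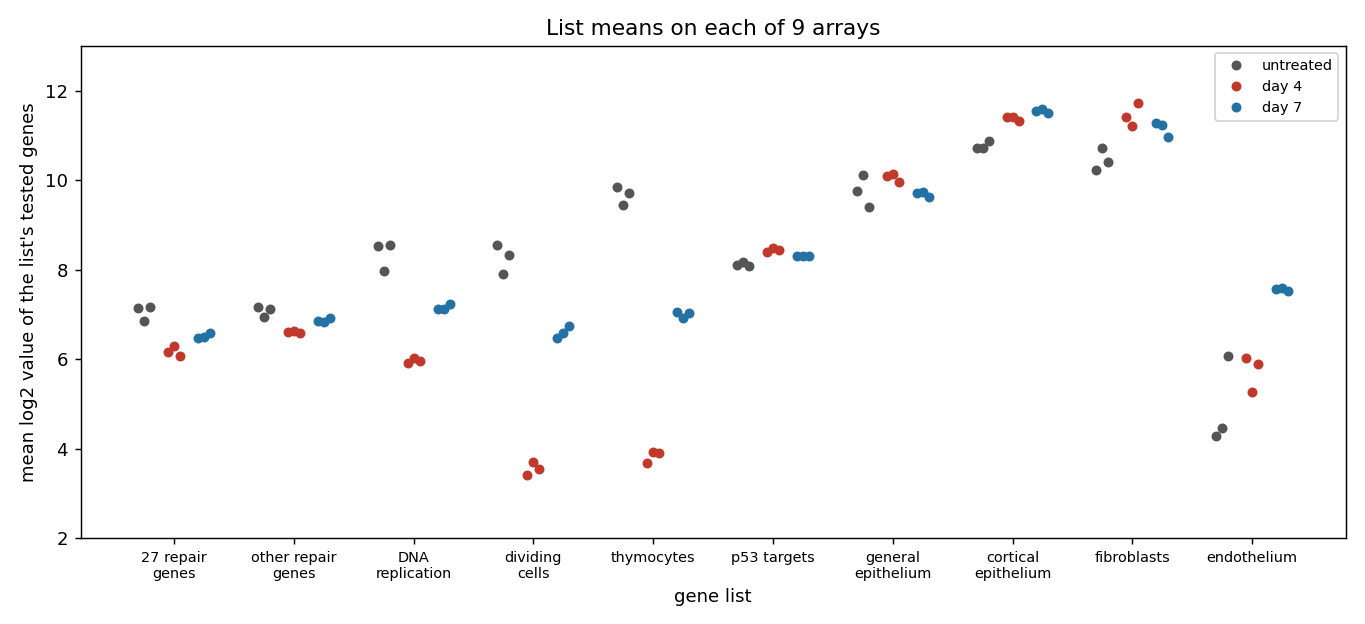
Mean log2 value of the tested genes of 10 lists (y axis) on each of the 9 arrays (points, in grey for untreated, red for day 4 and blue for day 7). The 27 repair genes, the DNA replication, dividing-cell and thymocyte lists are lowest at day 4 and intermediate at day 7, whereas cortical epithelium lies between 10.72 and 10.87 in untreated samples and at 11.32 or above at both days on the deposited scale.

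End joining held both the largest rise and one of the largest falls among the members, and these were the partners of one complex. Xrcc5 encodes Ku80 and Xrcc6 encodes Ku70, which bind broken ends as a heterodimer. Xrcc5 (1451968_at, its only probe set here) read 6.69, 6.83 and 7.02 on the untreated arrays, 8.54, 8.74 and 8.56 at day 4, and 8.17, 8.19 and 8.22 at day 7. Every array of irradiated mice lay above every untreated array. The rise was 1.77 at day 4 (SE 0.11, 95% interval 1.53 to 2.01, limma adjusted p = 2.18e-06), or 3.41-fold, and 1.35 at day 7 (adjusted p = 3.15e-05), or 2.54-fold. With the arrays centred on 4 stromal lists the differences were 1.09 at day 4, still called, and 0.32 at day 7 (adjusted p = 0.128), which was not. The level at day 7 was 0.42 below that at day 4 (adjusted p = 0.0182).

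Xrcc6 (1417437_at) moved in the opposite direction. It read 9.22, 8.88 and 9.14 on the untreated arrays, 6.18, 6.42 and 6.47 at day 4, and 7.50, 7.52 and 7.73 at day 7. The 3 groups did not overlap, and day 7 lay between day 4 and untreated. The fall at day 4 was 2.72 (difference -2.72, SE 0.13, 95% interval -3.01 to -2.44, limma adjusted p = 4.76e-07), or 6.61-fold, and at day 7 it was 2.82-fold (difference -1.50, adjusted p = 4.63e-05). Xrcc6 then rose by 1.23 between day 4 and day 7 (adjusted p = 0.000316). With the mean of its 2 probe sets in place of the brighter one, the difference at day 4 was -1.73 and that between the days 0.62, both still past the threshold. The dimmer probe set lay below the detection level on all 9 arrays, which shrinks the averaged differences.

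The promoter windows of these partners are printed because the pair split in direction. They run from 250 bases before to 50 bases after the start site, 300 bases in all, as RefSeq gives them for GRCm38.p6. The Xrcc6 window lies at chr15:82016119-82016418 on the plus strand and the Xrcc5 window at chr1:72307171-72307470 on the plus strand. Capitals mark a match to an E2F word, a letter pattern described further on.
Xrcc6: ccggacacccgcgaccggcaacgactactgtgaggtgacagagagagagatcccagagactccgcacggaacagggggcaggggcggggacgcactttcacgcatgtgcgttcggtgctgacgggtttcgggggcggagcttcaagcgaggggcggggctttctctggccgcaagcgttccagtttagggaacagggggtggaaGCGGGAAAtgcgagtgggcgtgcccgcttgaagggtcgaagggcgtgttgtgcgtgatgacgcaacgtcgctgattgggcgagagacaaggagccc
Xrcc5: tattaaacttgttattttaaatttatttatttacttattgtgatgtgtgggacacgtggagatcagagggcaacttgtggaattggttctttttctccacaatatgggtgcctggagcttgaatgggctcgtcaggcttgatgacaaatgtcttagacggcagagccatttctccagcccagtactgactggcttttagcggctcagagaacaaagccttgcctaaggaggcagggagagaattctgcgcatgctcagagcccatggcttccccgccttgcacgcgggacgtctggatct
The Xrcc6 window holds 1 match, which begins 46 bases before the start site, and the Xrcc5 window holds none of the words searched. A match is a stretch of letters and not a shown binding site.

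The other end joining members fell or passed the test at one day alone. Lig4 (1439487_at), the ligase that seals the ends, read 7.88, 7.32 and 8.00 on the untreated arrays, 5.80, 5.96 and 5.28 at day 4, and 6.01, 6.00 and 6.33 at day 7. Irradiated and untreated arrays did not overlap. Lig4 fell 4.14-fold at day 4 (difference -2.05, SE 0.22, limma adjusted p = 6.4e-05) and 3.07-fold at day 7 (difference -1.62, adjusted p = 0.000429), and day 7 did not pass the test against day 4 (0.44, adjusted p = 0.174). Prkdc (1451576_at), the kinase that Ku recruits, read 7.17, 6.99 and 6.95 on the untreated arrays, 6.86, 6.80 and 6.61 at day 4, and 6.16, 6.38 and 6.55 at day 7. The 3 groups did not overlap, and each later group was lower. Prkdc fell 1.6-fold at day 7 (difference -0.68, adjusted p = 0.00172), while the difference of -0.28 at day 4 missed the threshold (95% interval -0.56 to 0.00, adjusted p = 0.0706).

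Day 7 lay 0.40 below day 4 for Prkdc (difference -0.40, adjusted p = 0.0418), but this call was lost without day 4 replicate 1 (-0.34), day 4 replicate 2 (-0.38), day 7 replicate 1 (-0.30) or day 7 replicate 2 (-0.40). The corresponding decline of Xrcc5 was lost without day 4 replicate 2 (-0.36), day 7 replicate 1 (-0.41) or day 7 replicate 2 (-0.42). With the arrays centred on epithelial lists both were lost, Prkdc at -0.30 (adjusted p = 0.16) and Xrcc5 at -0.33 (adjusted p = 0.116). Of the other end joining genes on a list of 9, 3 could be tested. Dntt, the terminal transferase that adds bases at antigen receptor joints in lymphocytes, fell by 6.54 at day 4 (SE 0.22, adjusted p = 6.67e-08) and by 1.92 at day 7. Xrcc4, the partner of Lig4, had a difference of -0.05 at day 4 (adjusted p = 0.731), and Aplf, a scaffold that binds Ku, one of -0.07 (adjusted p = 0.602).

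**Figure D3:**
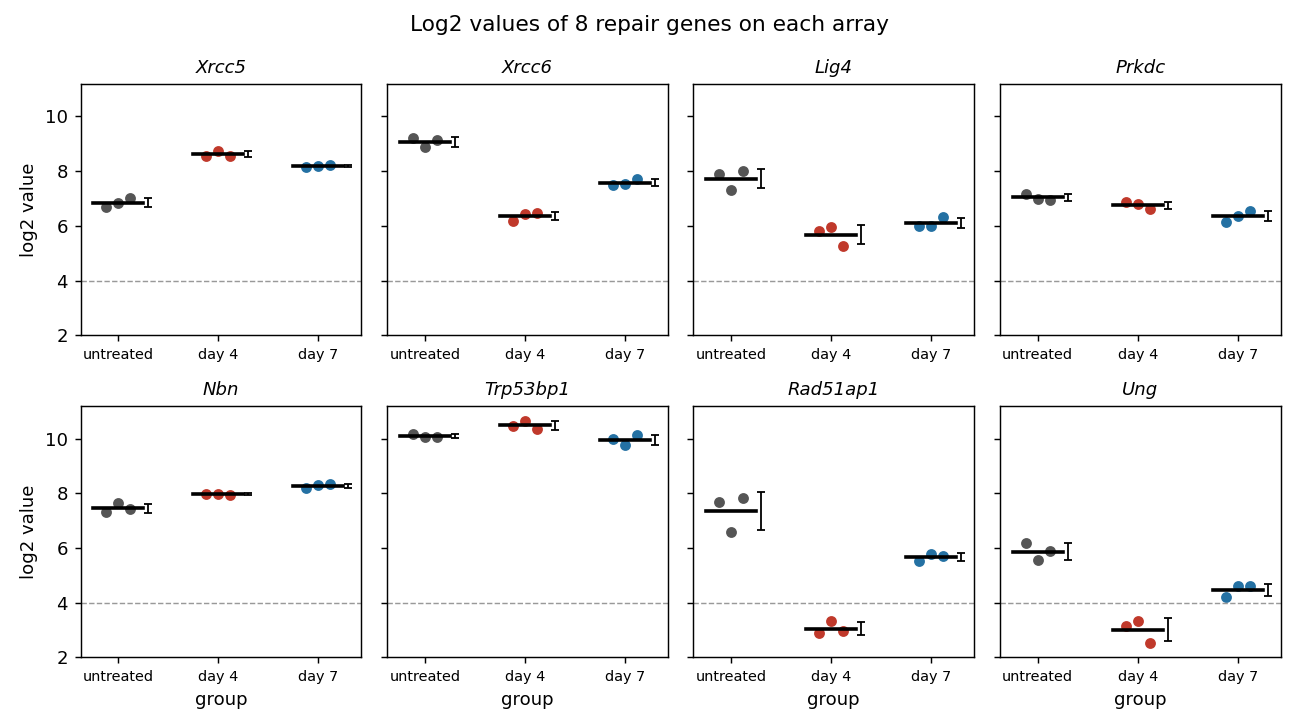
Log2 value of 8 repair genes (1 panel each) on each array (points), by group, with the group mean (line) and SD over 3 arrays (bar), and the detection level of 4 dashed. On the deposited scale Xrcc5 and Nbn are higher at both days and Trp53bp1 at day 4 alone, Prkdc steps down with time, and Xrcc6, Rad51ap1 and Ung are lowest at day 4 with day 7 in between.

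Among 7 tested genes of homologous recombination and cross-link repair, 4 fell and 1 rose at day 4, and 3 fell and 1 rose at day 7. Any change passed the test for 71.4% of them at day 4 and 57.1% at day 7, near the 63.2% and 54.1% of all genes. Of all genes tested, 21.4% fell and 41.8% rose at day 4, and 22% fell and 32.1% rose at day 7. Rad51ap1 (1417938_at), which promotes strand pairing in recombination, read 7.69, 6.57 and 7.81 on the untreated arrays, 2.89, 3.32 and 2.96 at day 4, and 5.52, 5.79 and 5.71 at day 7. All 3 day 4 arrays were below the detection level, and untreated replicate 2 was more than 1 unit under the other untreated arrays. Rad51ap1 fell at least 10.3-fold at day 4 (limma adjusted p = 5.01e-06) and 3.22-fold at day 7 (difference -1.69, 95% interval -2.35 to -1.02, adjusted p = 0.00145). It rose at least 3.19-fold from day 4 to day 7 (adjusted p = 0.000523). With the mean of its 4 probe sets the fitted differences were -2.53 at day 4 and 1.30 between the days, against -4.30 and 2.62 for the probe set used.

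The breast cancer susceptibility genes Brca1 and Brca2, which act in homologous recombination, both fell. Brca1 (1424629_at) read 7.35, 6.42 and 7.52 on the untreated arrays, 4.62, 4.65 and 5.33 at day 4, and 5.53, 6.13 and 6.01 at day 7. Untreated replicate 2 was again the lowest untreated array, and the groups did not overlap. Brca1 fell 4.68-fold at day 4 (difference -2.23, SE 0.31, limma adjusted p = 0.000285) and 2.31-fold at day 7 (adjusted p = 0.0102). Its rise of 1.02 between the days (adjusted p = 0.0403) was lost without untreated replicate 1 (1.02), day 4 replicate 1 (0.89), day 4 replicate 2 (0.91), day 7 replicate 2 (0.90) or day 7 replicate 3 (0.96), and with the arrays centred on 4 stromal lists (0.67, adjusted p = 0.0582). Brca2 (1419076_a_at) read 5.43, 4.99 and 5.38 on the untreated arrays, 4.18, 3.93 and 4.45 at day 4, and 4.65, 4.25 and 4.49 at day 7. It fell 2.12-fold at day 4 (difference -1.08, adjusted p = 0.000598) and 1.74-fold at day 7 (difference -0.80, adjusted p = 0.00421), and the days overlapped.

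The 3 genes of the MRN complex, which finds double-strand breaks and starts resection and signalling, did not move alike. Nbn (1448746_at), the subunit that binds the ATM kinase, read 7.30, 7.63 and 7.42 on the untreated arrays, 7.98, 7.98 and 7.94 at day 4, and 8.20, 8.30 and 8.32 at day 7. No array of irradiated mice reached as low as an untreated one. On the deposited scale, though not with 4 stromal lists as the standard, Nbn rose 1.43-fold at day 4 (difference 0.51, SE 0.10, limma adjusted p = 0.00174) and 1.77-fold at day 7 (difference 0.82, adjusted p = 0.000237). The step of 0.31 between the days (adjusted p = 0.0489) was lost when any single array of either day, or untreated replicate 3, was left out (0.28 to 0.34).

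Mre11a (1416748_a_at), the nuclease of the complex, read 6.30, 6.27 and 6.29 on the untreated arrays, 5.98, 5.86 and 5.44 at day 4, and 6.04, 6.25 and 6.09 at day 7. It fell 1.44-fold at day 4 (difference -0.52, SE 0.14, limma adjusted p = 0.0093), with day 4 replicate 3 the lowest array, and the difference of -0.16 at day 7 missed the threshold (adjusted p = 0.355). With the mean of its 2 probe sets the day 4 difference was -0.27 (adjusted p = 0.013). Rad50, the ATPase that tethers the ends, averaged 6.84 ± 0.27 in untreated samples, 6.92 ± 0.10 at day 4 and 6.62 ± 0.06 at day 7 and passed no comparison (0.08 at day 4, 95% interval -0.22 to 0.38, adjusted p = 0.621). Rad52, a strand-annealing protein, averaged 4.34 ± 0.41 in untreated samples, 4.03 ± 0.35 at day 4 and 3.97 ± 0.22 at day 7, close to the detection level, and also passed none (-0.31 at day 4, 95% interval -0.85 to 0.22, adjusted p = 0.273).

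The remaining 5 recombination and cross-link members with a probe set did not pass the filter on dim genes. Rad54l, a DNA translocase, read 5.10, 2.96 and 5.11 on the untreated arrays and was below 4 on all others, between 2.52 and 3.06. The Fanconi anaemia gene Fanca read 5.40, 3.87 and 5.65 on the untreated arrays, and the Bloom helicase gene Blm read 5.77, 3.92 and 5.46, each below 4 on every array of irradiated mice. Exo1, the exonuclease of resection and mismatch repair, read 4.97, 2.95 and 5.15 on the untreated arrays and 2.28 to 2.67 on the others. In all 4 the level was reached in untreated replicates 1 and 3 and missed in replicate 2. Fancd2, the central protein of the Fanconi pathway, lay below 4 on all 9 arrays. Without the filter, Rad54l (adjusted p = 0.041), Blm (adjusted p = 0.0247), Exo1 (adjusted p = 0.0407) and Fancd2 (adjusted p = 0.0278) passed the test at day 4 and Fanca did not (adjusted p = 0.0649), and none of the 5 passed at day 7 (adjusted p 0.0604 to 0.136). Among brighter members, the same setting ended the day 4 calls of Mdc1, Msh3, Pms2 and Ddb2 and the day 7 calls of Pms2 and Lig1. It also ended the calls of Nbn, Brca1, Chek1 and Prkdc between the days. No fold is given for the 5 dim members.

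Untreated replicate 2 was the lowest untreated array for 18 of the 27 tested members and 23 of the 34 with a probe set. Other groups also had an array that was often lowest. Day 4 replicate 3 was the lowest day 4 array for 18 and 20 of them, and day 7 replicate 1 the lowest day 7 array for 14 and 18. The same was not counted over all genes. The list means of untreated replicate 2 were also the lowest of the untreated arrays for dividing cells, at 7.91 against 8.55 and 8.33, and for thymocytes, at 9.45 against 9.86 and 9.71.

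Of 14 tested genes on a list of other recombination and cross-link genes, 8 fell and 3 rose at day 4 (against 21.4% and 41.8% of all genes). At day 7, 7 fell and 4 rose (against 22% and 32.1%), and between the days 7 rose (against 9.78%). Ube2t, the ubiquitin-conjugating enzyme of the Fanconi pathway, fell at least 6.37-fold at day 4 (limma adjusted p = 1.94e-06). Usp1, which removes that ubiquitin again, fell by 1.57 on the log2 scale (adjusted p = 3.4e-06), and Rpa1, which coats single-stranded DNA, fell by 1.25 (adjusted p = 1.32e-05). The list's median difference was -0.44 at day 4 and -0.11 at day 7.

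The 5 damage signalling members did not move together. The apical kinases passed no comparison on the deposited scale. Atm, activated at double-strand breaks, averaged 6.80 ± 0.06 in untreated samples, 6.66 ± 0.14 at day 4 and 6.97 ± 0.12 at day 7 (-0.15 at day 4, 95% interval -0.38 to 0.09, limma adjusted p = 0.243; 0.17 at day 7, adjusted p = 0.201). Its day 4 arrays lay below all untreated and all day 7 arrays, and day 7 was 0.31 above day 4 (95% interval 0.08 to 0.55), with an adjusted p of 0.0525 that missed the threshold. A second Atm probe set had the opposite signs, with 0.18 at day 4, -0.05 at day 7 and -0.24 between the days. None of these differences passed the test. Atr, activated at stalled forks, averaged 7.10 ± 0.12 in untreated samples, 7.04 ± 0.11 at day 4 and 6.97 ± 0.13 at day 7 (-0.06 at day 4, 95% interval -0.30 to 0.18, adjusted p = 0.62). The 3 probe sets of Atr disagreed. One of the others fell at both days (-0.54, adjusted p = 0.0321, and -0.71, adjusted p = 0.0117), another passed neither test (0.31 and -0.28), and their mean gave a call at day 7 (-0.37, adjusted p = 0.0339). For the probe sets used, the day 4 intervals reach no further than 0.38 from 0 on the deposited scale, whereas with the arrays centred on epithelial lists the differences were -0.61 for Atm and -0.53 for Atr, both past the threshold.

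Chek1 (1449708_s_at), the checkpoint kinase downstream of ATR, read 6.68, 5.51 and 6.82 on the untreated arrays, 3.33, 4.01 and 3.30 at day 4, and 4.68, 4.73 and 5.11 at day 7. The groups did not overlap, and 1 of the 3 day 4 arrays reached the detection level. The day 4 mean of 3.55 lay below that level, so the size of the day 4 fold is uncertain. Chek1 fell 6.92-fold at day 4 (difference -2.79, SE 0.34, limma adjusted p = 0.000129) and 2.82-fold at day 7 (difference -1.50, adjusted p = 0.00549). A second Chek1 probe set was below the detection level on all 3 day 4 arrays and had a difference of -1.82 at day 7. The rise of 1.29 between the days (adjusted p = 0.0231) was lost without day 4 replicate 1 (1.18), day 4 replicate 3 (1.17), day 7 replicate 2 (1.35) or day 7 replicate 3 (1.16).

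The adaptor proteins that bind marked chromatin around a break differed from each other. Trp53bp1 (1426956_a_at), which encodes a p53-binding protein that steers breaks towards end joining, read 10.17, 10.07 and 10.05 on the untreated arrays, 10.46, 10.64 and 10.34 at day 4, and 9.97, 9.77 and 10.11 at day 7. On the deposited scale, though not on the stromal ones, it rose 1.3-fold at day 4 (difference 0.38, SE 0.12, limma adjusted p = 0.0172). From day 4 to day 7 it fell by 0.53 (adjusted p = 0.0111), a fall that kept its call under all 21 alternatives. The day 4 rise was lost without day 4 replicate 2 (0.30, adjusted p = 0.0645). A second probe set had a difference of 0.40 at day 4. Mdc1 (1434837_at), a scaffold for ATM signalling, read 5.97, 5.98 and 5.72 on the untreated arrays, 5.47, 5.79 and 5.22 at day 4, and 5.64, 5.65 and 5.67 at day 7, and untreated and day 4 arrays overlapped.

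Mdc1 fell 1.32-fold at day 4 (difference -0.40, SE 0.14, limma adjusted p = 0.0363), a call lost under 9 of 20 alternatives. Among them were leaving out untreated replicate 1 (-0.36), untreated replicate 2 (-0.35), day 4 replicate 1 (-0.39), day 4 replicate 3 (-0.26) or any day 7 array (-0.40). Of 12 other tested signalling genes, 7 fell and 1 rose at day 4 (against 21.4% and 41.8% of all genes). On the same list 5 fell at day 7 (against 22%) and 5 rose between the days (against 9.78%). The 3 with the smallest adjusted p at day 4 all fell. Clspn, which presents CHK1 to ATR, fell at least 8.68-fold at day 4 (adjusted p = 2.66e-05), Topbp1, an activator of ATR, fell by 2.02 on the log2 scale (adjusted p = 2.85e-05), and Tipin, of the fork protection complex, fell by 1.50 (adjusted p = 2.28e-06).

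All 3 tested mismatch repair members fell at day 4, against 21.4% of all genes tested. Msh6 (1416915_at), which takes part in recognising single mismatches, read 9.20, 8.86 and 9.39 on the untreated arrays, 7.13, 7.43 and 6.96 at day 4, and 7.37, 7.63 and 7.63 at day 7. Every array of irradiated mice was more than 1 unit below every untreated array. Msh6 fell 3.94-fold at day 4 (difference -1.98, SE 0.17, limma adjusted p = 1.56e-05) and 3.05-fold at day 7 (difference -1.61, adjusted p = 0.000116), and the difference of 0.37 between the days missed the threshold (adjusted p = 0.128).

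Msh3 (1424166_at), which takes part in recognising loops, read 5.75, 5.47 and 6.16 on the untreated arrays, 5.20, 5.40 and 5.37 at day 4, and 5.46, 5.46 and 5.47 at day 7. It fell 1.39-fold at day 4 (difference -0.47, SE 0.16, limma adjusted p = 0.0267), and the call was lost without untreated replicate 1 (-0.50), untreated replicate 3 (-0.29), day 4 replicate 1 (-0.41) or day 4 replicate 3 (-0.49). Pms2 (1423539_at), which nicks the strand to be repaired, read 5.44, 4.71 and 5.58 on the untreated arrays, 4.63, 4.62 and 4.48 at day 4, and 4.63, 4.43 and 4.58 at day 7. Its untreated replicate 2 lay close to the irradiated arrays. Pms2 fell 1.59-fold at day 4 (difference -0.67, adjusted p = 0.0166) and 1.62-fold at day 7 (difference -0.70, adjusted p = 0.0164). The day 4 call was lost without untreated replicate 1 (-0.57), untreated replicate 3 (-0.50) or day 4 replicate 3 (-0.62), and the day 7 call without untreated replicate 1 (-0.60), untreated replicate 3 (-0.53) or day 7 replicate 2 (-0.64).

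Of 3 other tested mismatch repair genes, Pcna, the sliding clamp of replication, fell by 2.18 at day 4 (SE 0.12, limma adjusted p = 1.44e-06) and by 0.91 at day 7. Mlh3, a mismatch repair gene that also acts in meiosis, rose by 1.39 at day 4 (adjusted p = 0.000374) and by 0.66 at day 7, and Pms1 fell by 0.55 at day 4 (adjusted p = 0.0185). The 3 genes therefore did not share a direction.

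Base excision and single-strand break repair held 5 tested members, of which 3 fell at both days and rose again between them. Of all genes tested, 21.4% fell at day 4, 22% fell at day 7 and 9.78% rose between the days. Ung (1425753_a_at), the glycosylase that removes uracil from DNA, read 6.18, 5.55 and 5.88 on the untreated arrays, 3.14, 3.34 and 2.54 at day 4, and 4.21, 4.60 and 4.60 at day 7. It was below the detection level on all 3 day 4 arrays and above it on the other 6. Ung fell at least 3.65-fold at day 4 (limma adjusted p = 1.26e-05) and 2.64-fold at day 7 (difference -1.40, adjusted p = 0.00108), and rose at least 1.38-fold from day 4 to day 7 (adjusted p = 0.00273).

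Lig1 (1416641_at), the ligase that joins replication fragments and long repair patches, read 8.25, 7.60 and 8.07 on the untreated arrays, 6.17, 6.48 and 5.57 at day 4, and 7.24, 7.09 and 7.19 at day 7. The groups did not overlap. Lig1 fell 3.73-fold at day 4 (difference -1.90, SE 0.23, limma adjusted p = 0.000137) and rose by 1.10 from day 4 to day 7 (adjusted p = 0.0101). Its fall of 1.74-fold at day 7 (difference -0.80, adjusted p = 0.018) was lost without untreated replicate 1 (-0.66) or day 7 replicate 2 (-0.76). Lig3 (6.50 ± 0.02 in untreated samples, 6.35 ± 0.14 at day 4, 6.36 ± 0.08 at day 7), a ligase that is not tied to replication, passed no comparison (-0.15 at day 4, adjusted p = 0.196).

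Parp1 (1435368_a_at), which senses nicks and builds poly(ADP-ribose), read 8.77, 8.49 and 8.68 on the untreated arrays, 7.16, 7.39 and 7.24 at day 4, and 7.83, 7.74 and 7.89 at day 7. It fell 2.61-fold at day 4 (difference -1.39, SE 0.11, limma adjusted p = 9.04e-06) and 1.77-fold at day 7 (difference -0.83, adjusted p = 0.000299), with a rise of 0.56 between the days (adjusted p = 0.006). With the arrays centred on 4 stromal lists that rise was 0.21 (adjusted p = 0.392). Its other 3 probe sets had differences of -1.37, -1.46 and -0.99 at day 4, and of 0.56, 0.49 and -0.10 between the days. Xrcc1, the scaffold that PARP1 recruits with LIG3, averaged 6.25 ± 0.11 in untreated samples, 6.36 ± 0.16 at day 4 and 6.26 ± 0.17 at day 7 and passed no comparison (0.11 at day 4, adjusted p = 0.464). Ogg1, the glycosylase for oxidised guanine, reached the detection level on 1 of 9 arrays and passed no comparison without the filter.

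The 11 other tested base excision genes were mixed, with 4 lower and 5 higher at day 4 and 5 lower and 2 higher at day 7. Over all genes tested, 21.4% were lower and 41.8% higher at day 4, and 22% lower and 32.1% higher at day 7. Fen1, the flap nuclease shared with replication, fell by 1.32 at day 4 (SE 0.09, limma adjusted p = 6.28e-06) and by 0.42 at day 7. Among glycosylases, Neil3 lay at least 2.82-fold lower at day 4 and is counted among the falls at both days. It was below the detection level on every array of irradiated mice and qualified for testing only through the untreated arrays. Its fall was thus built into its being tested. Neil1 fell at both days (difference -1.96 at day 4, adjusted p = 0.000319, and -2.04 at day 7, adjusted p = 0.000431). Neil1 did not pass the test between the days (-0.08, adjusted p = 0.848).

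Nucleotide excision repair had 3 tested members, of which 1 fell at day 4, and 1 fell and 1 rose at day 7. Of all genes tested, 21.4% fell at day 4, and 22% fell and 32.1% rose at day 7. Ddb2 (1436680_s_at), the damage sensor for ultraviolet lesions and a known p53 target, read 8.83, 8.10 and 8.78 on the untreated arrays, 7.98, 8.10 and 7.81 at day 4, and 7.73, 7.56 and 7.69 at day 7. It fell 1.52-fold at day 4 (difference -0.60, SE 0.19, limma adjusted p = 0.0188) with overlapping groups, and 1.87-fold at day 7 (difference -0.90, adjusted p = 0.00334) with groups apart. The day 4 call was lost without untreated replicate 1 (-0.47), untreated replicate 3 (-0.50) or day 4 replicate 3 (-0.53). Its second probe set had differences of -0.78 and -1.12.

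Ercc1 (1437447_s_at), the partner of the XPF nuclease, read 7.65, 7.89 and 7.69 on the untreated arrays, 7.93, 8.07 and 7.89 at day 4, and 8.17, 7.96 and 8.05 at day 7. On the deposited scale, though not on the stromal ones, it rose 1.25-fold at day 7 (difference 0.32, SE 0.10, limma adjusted p = 0.027), a call lost without untreated replicate 1 (0.27), untreated replicate 3 (0.29), day 7 replicate 1 (0.26) or day 7 replicate 3 (0.32). A second Ercc1 probe set had a larger difference at day 7, 0.68 (limma adjusted p = 0.000369), and also passed at day 4 (0.26, adjusted p = 0.0287). The stromal scalings, run only for the probe set used, shift differences at day 7 by -0.37 and -1.03. The difference of 0.68 is larger than the first shift and smaller than the second. Ercc3, a helicase of the TFIIH complex, averaged 7.37 ± 0.06 in untreated samples, 7.21 ± 0.15 at day 4 and 7.17 ± 0.21 at day 7 and passed no comparison. Ercc2, the other TFIIH helicase, lay near the floor of the scale on all 9 arrays, between 2.29 and 2.43.

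Of 14 other tested nucleotide excision genes, 6 rose and 3 fell at day 4, and 4 rose and 1 fell at day 7, with median differences of 0.07 and 0.09. Over all genes tested, 41.8% rose and 21.4% fell at day 4, and 32.1% rose and 22% fell at day 7. The day 4 counts of this list are close to those shares. Gtf2h4, a TFIIH subunit, fell by 2.32 at day 4 (SE 0.13, limma adjusted p = 1.98e-06), whereas the nuclease gene Ercc5 rose by 0.73 (adjusted p = 0.00151) and the damage-verifying protein gene Xpa by 0.67 (adjusted p = 0.00189). Among 8 tested genes of translesion synthesis and direct reversal, 2 rose and 2 fell at day 4 and 2 rose and 3 fell at day 7. Polk, a translesion polymerase, rose by 1.30 at day 4 (adjusted p = 1.32e-05), and Mad2l2, a subunit of polymerase zeta and of shieldin, rose by 0.92 (adjusted p = 7.1e-05). Rad18, which ubiquitinates PCNA, lay at least 1.83-fold lower at day 4 and is counted among the falls at both days. It was below the detection level on every array of irradiated mice and qualified for testing only through the untreated arrays. Its fall was thus built into its being tested.

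**Figure D4:**
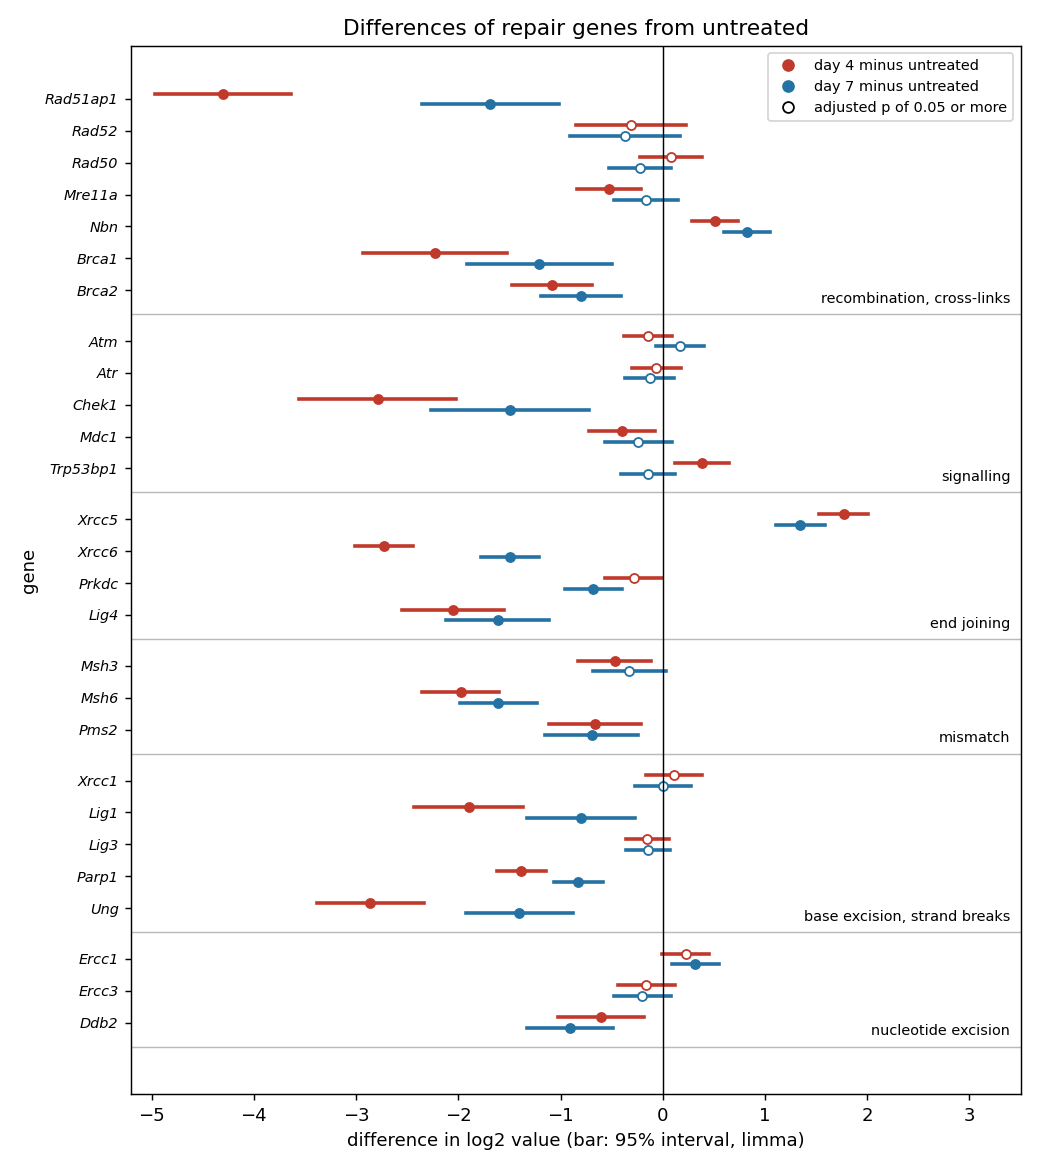
Difference in log2 value from untreated (x axis, with 95% interval from limma) for the 27 tested repair genes, by repair route, at day 4 (red) and day 7 (blue), with filled points for an adjusted p under 0.05. Most points lie left of 0 in every repair route, while Xrcc5 at 1.77 and 1.35 lies farthest to the right.

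Direction and size depend on what the arrays are scaled to, which matters most for the members that rose. On the deposited scale 66.1% of the genes called at day 4 and 59.3% of those called at day 7 were higher. When each array was centred on the general and cortical epithelium lists, the median of all genes shifted by -0.46 at day 4 and -0.37 at day 7, and the share higher became 29.6% and 24.3%. When fibroblast and endothelium lists were added to the centring, the shifts were -0.68 and -1.03 and the shares 16.7% and 3.53%. Under these scalings Xrcc5 still rose at day 4, by 1.09 at the least, but its difference at day 7 shrank to 0.32 (adjusted p = 0.128) with 4 lists.

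Nbn under the 4-list scaling had differences of -0.17 at day 4 and -0.21 at day 7, and under the epithelial scaling 0.05 at day 4 (adjusted p = 0.69) and 0.45 at day 7 (adjusted p = 0.005). With the probe sets used, Trp53bp1 turned to -0.08 and -0.30 at day 4 under the epithelial and 4-list scalings. Ercc1 turned to -0.05 and -0.71 at day 7 under the same scalings. The falls of Rad51ap1, Brca1, Brca2, Chek1, Xrcc6, Lig4, Msh6, Parp1 and Ung at both days kept direction and call under every alternative testing them. These alternatives numbered 21 for Rad51ap1, Xrcc6, Lig4, Msh6 and Parp1, 20 for Brca1, Brca2 and Ung, and 19 for Chek1. In the rest, the stricter filter or the mean of all probe sets left Brca1, Brca2, Chek1 and Ung untested. The 7 members that passed no comparison on the deposited scale (Rad52, Rad50, Atm, Atr, Xrcc1, Lig3 and Ercc3) were all lower at day 4 under the epithelial scaling, with differences from -0.36 for Xrcc1 to -0.77 for Rad52 and adjusted p-values under 0.05. Centring on the genes tested shifted the day 4 median by -0.11 and the share higher to 57.8%.

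DNA replication genes and p53 targets were measured on the same arrays. All 18 tested genes of the DNA replication list fell at both days, with medians of -2.26 at day 4 and -1.08 at day 7, and 17 rose between the days with a median of 1.02. Mcm2 and Mcm5, subunits of the replicative helicase, fell by 3.10 and 3.58 at day 4 (limma adjusted p = 5.4e-07 for both). Mki67, the proliferation marker, averaged 11.16 ± 0.62 in untreated samples, 4.95 ± 0.04 at day 4 and 9.09 ± 0.17 at day 7. Of 20 tested p53 targets, which include Ddb2, Xpc and Polk from the repair lists, 10 rose and 7 fell at day 4 and 9 rose and 6 fell at day 7, with medians of 0.28 and 0.16. The shares over all genes tested were 41.8% rising and 21.4% falling at day 4, and 32.1% and 22% at day 7.

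Cdkn1a, the p53-induced inhibitor of the cell cycle, averaged 8.87 ± 0.40 in untreated samples, 10.80 ± 0.12 at day 4 and 10.35 ± 0.20 at day 7, and rose by 1.93 and 1.48 (SE 0.19 each, limma adjusted p = 3.93e-05 and 0.000334). Eda2r, a death-domain receptor, rose at least 3.24-fold at day 4 (adjusted p = 2.49e-06), and Ccng1, a cyclin induced by p53, rose by 1.28 (adjusted p = 4.02e-06). Mdm2, which degrades p53, had differences of -0.31 at day 4 (adjusted p = 0.0611) and -0.33 at day 7 (adjusted p = 0.0563) and passed neither test. The 105 other repair genes, of which 65 were tested, had 27 lower and 18 higher at day 4 and 23 lower and 13 higher at day 7, with medians of -0.15 and -0.05. Over all genes tested, 21.4% were lower and 41.8% higher at day 4, against 22% and 32.1% at day 7.

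E2F factors switch on genes of DNA replication at the start of S phase, and several repair genes are among their known targets, so the promoter windows of the members were searched for E2F words. The words were TTTCCCGC, TTTCGCGC, TTTGCCGC and TTTGGCGC, on both strands, chosen with the members' changes known. Windows were found in RefSeq for 27 of the 34 members, 31 windows in all. At least 1 word was held by 6 of these 27 members (Brca2, Mdc1, Xrcc6, Msh3, Msh6 and Lig1), against 2.85% of 21262 windows of protein-coding genes. The members are counted by gene over all their windows, and the background by single window. All 6 are among the 14 members with a window that fell at day 4, and the 8 tested members with a window that did not fall at day 4 held 0. The 5 dim members with a window also held 0. Among these, Blm (-1.89) and Rad54l (-1.87) passed the test as lower at day 4 without the filter, so they do not belong with the members that did not fall. Because the words were chosen with these changes known, the split is a description and not a test. The day 4 calls of Mdc1 and Msh3 were each lost under several alternatives.

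The windows of Msh6, Msh3 and Lig1 are printed because their matches differ in letters and place. They lie at chr17:87974800-87975099 on the plus strand, chr13:92354954-92355253 on the minus strand and chr7:13278576-13278875 on the plus strand. Capitals mark the E2F words.
Msh6: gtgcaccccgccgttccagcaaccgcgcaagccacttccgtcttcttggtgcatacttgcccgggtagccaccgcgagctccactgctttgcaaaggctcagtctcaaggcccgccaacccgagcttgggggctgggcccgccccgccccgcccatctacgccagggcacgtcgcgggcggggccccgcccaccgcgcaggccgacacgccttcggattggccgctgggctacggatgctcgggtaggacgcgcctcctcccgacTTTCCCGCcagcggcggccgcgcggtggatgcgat
Msh3: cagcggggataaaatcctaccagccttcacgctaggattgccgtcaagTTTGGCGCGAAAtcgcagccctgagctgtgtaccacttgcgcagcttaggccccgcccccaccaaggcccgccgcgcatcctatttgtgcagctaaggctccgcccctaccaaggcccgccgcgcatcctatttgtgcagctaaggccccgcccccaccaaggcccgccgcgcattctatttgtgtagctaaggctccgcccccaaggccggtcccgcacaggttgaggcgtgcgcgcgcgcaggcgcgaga
Lig1: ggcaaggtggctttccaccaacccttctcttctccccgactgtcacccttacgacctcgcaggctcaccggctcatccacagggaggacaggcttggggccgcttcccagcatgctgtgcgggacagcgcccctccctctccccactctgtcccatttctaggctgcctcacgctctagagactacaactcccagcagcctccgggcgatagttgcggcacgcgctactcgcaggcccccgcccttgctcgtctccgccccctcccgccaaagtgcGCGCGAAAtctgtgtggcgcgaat
The Msh6 match begins 15 bases and the Lig1 match 26 bases after the start site, and Lig1 has 2 further windows without one. The Msh3 window holds overlapping words that begin 202 and 198 bases before the start site, on opposite strands. The Brca2 match begins 168 bases and the Mdc1 match 16 bases before the start site. The word TTTGAA, part of an element of late cell-cycle genes, was in 0 member windows, against 16.0% of protein-coding windows. Members without a match, Rad51ap1, Chek1 and Parp1 among them, also fell, and a missing match says only that these letters are not in the window searched.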

How the data were processed

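Per the submitters' processing notes, the authors used GCRMA, which corrects background by probe sequence, normalizes arrays and summarises the probes of a set, to make the deposited log2 values, 1 per probe set and array. No version or setting of it is known here. That the logarithm is to base 2 was inferred from the size of the values. Between 26.1% and 27.2% of the values of an array lay at the floor of 2.27, which compresses differences there. The table gives no genome coordinates.

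Of 45101 probe sets, 64 were controls, 34945 had 1 gene symbol, 932 had several and 9160 had none. Probe sets with 1 symbol were used, and the brightest by its mean over 9 arrays stood for its gene. A gene needed at least 4 (log2) on at least 3 arrays, which left 10937 genes and set aside 7 members as too dim. The test was the moderated linear model of limma 3.58.1 (R 4.3.3; functions lmFit and eBayes) with the group as its term, and Benjamini-Hochberg adjustment ran over all genes tested at 0.05. Errors are SD over 3 arrays, whose number limits the precision. The model was tested on simulated data. Promoter windows came from RefSeq (GRCm38.p6). Plots used matplotlib 3.10.9 with Python 3.11.

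The members, lists and search words were chosen with earlier results of these data known. Values of every array are given for members called in at least 1 comparison, and group means for the rest. Of the other repair lists, up to 3 genes with the smallest adjusted p at day 4 are named, of the remaining lists up to 2, and Ptprc, Mki67, Epcam, Cdkn1a and Mdm2 in any case. Alternatives changed the filter (none, or a level of 6), the probe set rule (the mean of a gene's probe sets, or each alone), the variance (an intensity trend, or array weights), the scaling (3 centrings and quantile normalization), the samples (the 2 groups compared, or all but 1 array) and the model (the replicate number as a block).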

Additional observations from a re-analysis of the deposited data

How the results depend on the processing

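Counts are given as higher then lower. Leaving out 1 array at a time gave 4096 to 4604 higher and 1988 to 2372 lower genes at day 4, with 2 to 4 and 11 to 15 members. At day 7 it gave 2845 to 3696 and 1908 to 2463 genes, with 2 to 3 and 11 to 14 members, and between the days 750 to 1214 and 1010 to 2273 genes, with 5 to 8 and 1 to 4 members. A level of 6 left 9 members lower at day 4. Every probe set on its own gave 4077 lower probe sets and 7 higher of members at day 4, 5360 higher, 3990 lower and 20 lower of members at day 7, and 1759 higher and 6 lower of members between the days. Centring on the epithelial lists gave 2035 and 4850 genes with 1 and 23 members at day 4, 1551 and 4829 genes with 23 members lower at day 7, and 1216 lower genes with 1 lower member between the days. Centring on the 4 stromal lists gave 1081 and 5404 genes with 1 and 23 members at day 4, 314 and 8587 with 0 and 25 at day 7, and 475 and 4425 with 5 and 5 between the days, where the share higher was 9.69%, against 35.8% on the deposited scale, 47.5% centred on the genes tested, 48.1% centred on the epithelial lists and 46% after quantile normalization. Between the days, no filter left 1280 lower genes and 5 higher members, and array weights gave 2992 lower genes. The cause was not tested, though both centrings add a constant per array by construction.

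Signs turned under the epithelial centring for Rad50 (-0.38), Trp53bp1 (-0.081) and Xrcc1 (-0.36) at day 4 and for Xrcc1 (-0.36) and Ercc1 (-0.051) at day 7. They turned under the 4-list centring for Rad50 (-0.60), Nbn (-0.17), Trp53bp1 (-0.30) and Xrcc1 (-0.58) at day 4, for Nbn (-0.21), Atm (-0.86), Xrcc1 (-1.02) and Ercc1 (-0.71) at day 7, and for Nbn (-0.041) between the days. Whether the replicate numbers of the titles pair the samples is not known here. Deviations from the group means correlated between -0.118 and 0.183 for same-numbered arrays and between -0.289 and 0.215 for the others. With 3 arrays a group these values cannot decide it. With the number as a replicate block the calls of Ercc1 at day 7 (0.32, adjusted p = 0.0505) and of Nbn (0.31, adjusted p = 0.0698) and Prkdc (-0.40, adjusted p = 0.0806) between the days were lost, and no other member's call changed. Signal near the detection level limits Rad52, Chek1 and Ung, and the 7 dim members, tested only without the filter.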
